A study of Mus musculus with 30 samples.

Results

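The 3 single mouse embryos of embryonic day 2.75 (E2.75) genotyped as Null for Dis3 were compared with the 5 embryos of the same day genotyped as Het. These 8 embryos were taken by their stage and genotype labels from the 23 embryos of the series that have a gene count file. All embryos came from matings of Dis3 heterozygous parents, so null, het and wild-type (WT) embryos could be litter mates, and each library is 1 embryo. Null embryos carry 2 copies, and het embryos 1 copy, of an allele from which Cas9 cut several exons and end joining resealed the gap. The 3 WT embryos of E2.75 shared the statistical fit and are given beside the comparison, as are the embryos of E2.5 (4 Null, 2 Het, 6 WT). The mutation was present in every cell from fertilization, mothers were heterozygous and could supply oocyte RNA and protein, and dams had been stimulated with hormones. RNA was captured on oligo-dT beads, and the DNA left behind was used to genotype the same embryo.

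DIS3 is a catalytic ribonuclease of the RNA exosome, the complex that degrades RNA from its 3′ end in the nucleus and, with other partners, in the cytoplasm. The nuclear complex clears short-lived transcripts, among them those made in the reverse direction at the promoters of coding genes (promoter upstream transcripts), antisense RNA and excess or misprocessed small nuclear and small nucleolar RNA, and trims precursors of stable RNA. At this stage the embryo is a compacting morula, whose outer cells go on to form the trophectoderm, the first epithelium, and whose inner cells form the inner cell mass.

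Gene counts totalled 1690192 to 7051002 in the null and 3009380 to 14013185 in the het libraries, and the ranges overlapped (exact permutation p = 0.161, 2-sided). Of 55487 annotated genes, 14442 passed the filter on low counts and were tested. Values below are CPM, counts scaled to a common library size and adjusted by the trimmed mean of M values, changes are log2 fold changes of null against het ± standard error (SE), and a gene was called at a Benjamini-Hochberg adjusted p (edgeR quasi-likelihood test) under 0.1 with a log2 fold change beyond 1. The 10 markers of the preimplantation embryo were all detected, with a summed level of 3251 to 5824 CPM in null and 2851 to 4384 CPM in het embryos. Markers of cumulus and granulosa cells summed to 29.6 to 36.5 CPM in null and 9.78 to 37.0 CPM in het embryos, with 5 of 12 at 0 in all 8, and those of blood and immune cells to 4.95 to 24.9 and 0.801 to 14.5 CPM, with 3 of 8 at 0. Most of the cumulus and granulosa sum was the single gene Amhr2, at 27.5 to 33.6 CPM in null and 6.41 to 37.0 CPM in het embryos. Sums over the 4 oviduct and the 5 sperm markers did not exceed 6.63 CPM in any of these embryos. Y-linked transcripts were detected in 2 of the 3 null and 2 of the 5 het embryos, so sex was mixed in both groups.

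Dis3, the deleted gene (chr14:99075206-99099770, GRCm38, minus strand, overlapping Pibf1 on the other strand), was measured first. Its level was 14.3, 23.2 and 10.8 CPM in null embryos 1 to 3 and 47.2, 34.1, 54.4, 49.5 and 40.5 CPM in het embryos 1 to 5. Every null embryo lay below every het embryo, and the 3 WT embryos, at 124, 72.2 and 122 CPM, lay above both groups. The change was -1.51 ± 0.36 (adjusted p = 0.039). Counts are per gene, so the origin of the residual signal in null embryos was not tested. None of the other 11 exosome subunits and related ribonucleases tested was called. Of 23 cofactors of nuclear RNA surveillance, Zfc3h1, a zinc finger protein of the pathway that delivers polyadenylated nuclear RNA to the exosome, was higher (152, 208 and 141 CPM in null against 36.1 to 97.5 CPM in het embryos, 1.23 ± 0.33, adjusted p = 0.059). The share of cofactors called higher, 4.35%, stands beside 2.51% of all genes tested.

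Of the 14442 genes, 363 were called higher (2.51%) and 333 lower (2.31%) in null embryos. At an unadjusted p under 0.05 by edgeR, 2448 of the 14442 differed, and counts of list members at that threshold below are to be read beside this. Every null embryo was above every het embryo for 1063 genes (7.36%) and below every het embryo for 938 (6.49%). Of the called genes, 349 of the 363 that rose and 303 of the 333 that fell separated the 2 genotypes in this way. The kind of gene differed between the directions. Genes not annotated as protein-coding made up 65.0% of the rises, while protein-coding genes made up 94.6% of the falls. Among 2595 non-coding genes tested, 235 rose and 18 fell, and their median log2 fold change was 0.77. Among 11836 protein-coding genes tested, 127 rose and 315 fell, with a median of -0.12. Of these 11836, 6641 had a negative and 5195 a positive change, and counts of signs in lists of coding genes below are to be read beside this. A gene silent in het embryos could pass the filter on low counts through the null embryos alone. Without that filter, 406 rose and 41 fell of 12770 non-coding genes (median 0.00). Of 16709 protein-coding genes, 258 rose and 612 fell (median -0.16). When the libraries were scaled to the spike-in RNA in place of the endogenous genes, the median over all genes moved from -0.04 to -0.74. The counts then became 330 higher and 2164 lower, so the changes below are relative to the bulk of the transcriptome.

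**Figure D1:**
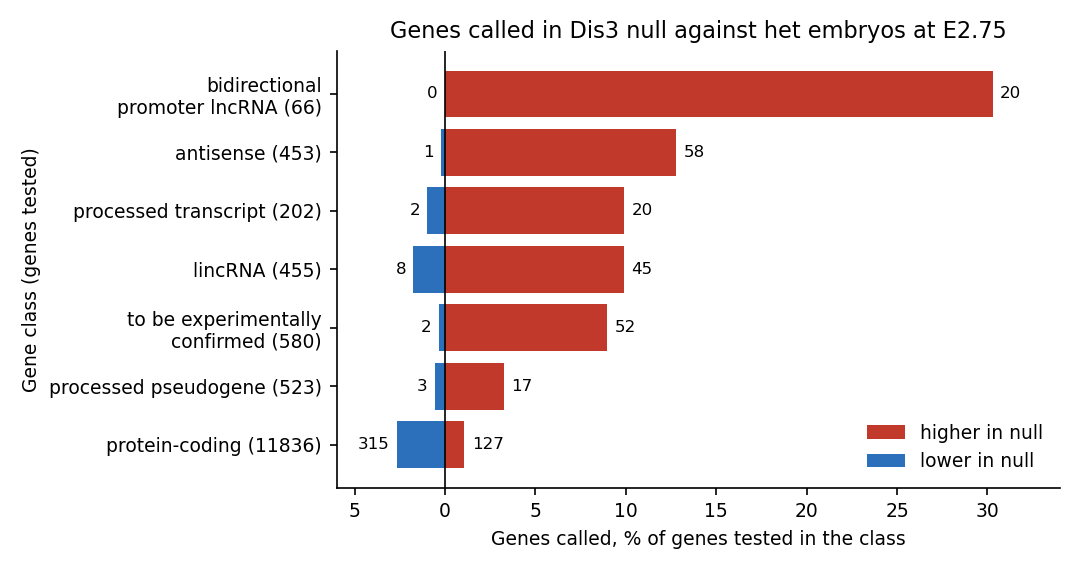
Percent of the tested genes that were called higher (red, right) or lower (blue, left) in null than in het embryos at E2.75, for 7 of the annotated classes (small RNA classes, among others, are not plotted), with the number of genes called beside each bar and the number tested in parentheses. Of the classes plotted, bidirectional promoter lncRNA genes show the longest bar, with 20 of 66 higher and 0 lower, and protein-coding genes are the class shown with more falls (315) than rises (127).

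The non-coding classes differed in how many members rose. Bidirectional promoter lncRNA genes, which by annotation share a promoter region with a coding gene and run away from it, rose in 20 of 66 cases and fell in 0, with a median of 2.75. For 32 of the 66, all 3 null embryos exceeded all 5 het embryos. By edgeR at an unadjusted p under 0.05, 33 of the 66 differed, and DESeq2 called 36 higher and 0 lower of 144 it tested. Antisense genes rose in 58 and fell in 1 of 453 cases (median 1.35). Without the filter on low counts, the medians were 2.46 for bidirectional promoter lncRNA genes and 0.39 for antisense genes. Long intergenic non-coding RNA (lincRNA) genes rose in 45 and fell in 8 of 455, and processed transcripts rose in 20 and fell in 2 of 202. Among 580 loci whose transcript still awaits experimental proof (class TEC), 52 rose and 2 fell. Processed pseudogenes, which are copies of spliced mRNA, rose in 17 and fell in 3 of 523. Without null embryo 1, the embryo with the highest antisense share, 6 of 74 bidirectional promoter lncRNA genes and 22 of 571 antisense genes were still called higher. Reads were counted without regard to strand, so a non-coding gene that overlaps another gene on the opposite strand cannot be told apart from it. Such an overlap was annotated for 48.1% of the non-coding genes that rose and 39.5% of those tested.

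Many of the non-coding genes that rose start back to back with a coding gene. A start on the opposite strand, head to head and within 1000 bp of the start of a coding gene, was annotated for 53 of the 235 that rose (22.6%) and for 246 of all 2597 tested genes that are not protein-coding (9.47%). The median distance between the paired starts was 121 bp. Of the 52 coding partners that were tested, 0 were called higher and 4 were called lower by edgeR (Rab5if, Cacybp, Ppa2 and Insig1). Among all coding genes tested, 1.07% were called higher and 2.66% lower. Of the 52 partners, 26 had a positive change, and their median change was 0.00. The sequences between the paired starts are shown for 3 bidirectional promoter lncRNA genes, because they are the stretch from which transcripts leave in both directions. These genes were taken only from called genes that separated the genotypes. They were read from GRCm38.p6 on the strand of the non-coding gene, 5′ to 3′. Capitals run from one annotated start to the other, with 20 bases of flank in lower case on each side.
1700007L15Rik/Zfp148, chr16:33380707-33380856, minus strand, starts 109 bp apart: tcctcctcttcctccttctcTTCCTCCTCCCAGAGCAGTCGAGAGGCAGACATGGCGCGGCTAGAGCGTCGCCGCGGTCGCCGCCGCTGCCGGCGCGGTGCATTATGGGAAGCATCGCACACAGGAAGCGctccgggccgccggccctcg
2810013P06Rik/Ankrd11, chr8:123042257-123042486, plus strand, starts 189 bp apart: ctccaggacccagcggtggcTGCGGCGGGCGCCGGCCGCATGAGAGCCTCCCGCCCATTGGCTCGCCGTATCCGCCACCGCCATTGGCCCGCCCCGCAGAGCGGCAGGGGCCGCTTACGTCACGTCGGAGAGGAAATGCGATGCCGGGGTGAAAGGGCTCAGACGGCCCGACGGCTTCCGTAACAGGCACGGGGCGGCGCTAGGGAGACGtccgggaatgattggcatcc
4632427E13Rik/Rab30, chr7:92741448-92741623, minus strand, starts 135 bp apart: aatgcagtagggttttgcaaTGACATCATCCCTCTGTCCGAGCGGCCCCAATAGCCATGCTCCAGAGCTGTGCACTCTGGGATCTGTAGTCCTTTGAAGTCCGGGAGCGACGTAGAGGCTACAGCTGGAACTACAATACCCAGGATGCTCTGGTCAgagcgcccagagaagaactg

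The non-coding gene of the first pair, 1700007L15Rik (chr16:33379854-33380727), was at 333, 127 and 158 CPM in null and 10.9, 21.6, 10.4, 18.8 and 10.2 CPM in het embryos. All null embryos were above all het embryos, and WT embryos ranged from 5.87 to 17.1 CPM. The rise was 3.85 ± 0.43 (adjusted p = 0.0014). Zfp148, the zinc finger transcription factor gene on the other side of that promoter, was at 147, 111 and 101 CPM in null and 97.0 to 141 CPM in het embryos (0.02 ± 0.24, adjusted p = 0.99). Its groups overlapped.

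2810013P06Rik (chr8:123042466-123044602) was at 126, 68.0 and 88.8 CPM in null and 4.77, 30.7, 13.8, 9.61 and 13.2 CPM in het embryos. The groups did not overlap (2.73 ± 0.72, adjusted p = 0.058), but WT embryo 1 reached 54.9 CPM while the other WT embryos were at 5.00 and 4.74 CPM. Ankrd11, its neighbour, encodes an ankyrin repeat regulator of chromatin and was not called (0.35 ± 0.28, adjusted p = 0.57).

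4632427E13Rik (chr7:92734166-92741468) was at 242, 227 and 207 CPM in null against 100, 37.8, 48.6, 72.1 and 105 CPM in het embryos (1.63 ± 0.31, adjusted p = 0.014). Under spike-in scaling its change was 0.87 and it was no longer called. Its partner Rab30, a small GTPase of the Golgi, was detected in 1 of 3 null embryos (0.740 CPM) and at 0 to 17.8 CPM in het embryos, and was not called (adjusted p = 0.24). A pair of genes outside the printed set showed the same layout at lower levels. Gm16196 (chr17:29014642-29032568), beside the splicing factor gene Srsf3, was at 42.9, 23.2 and 20.3 CPM in null and at or below 0.433 CPM in every het embryo (6.94 ± 1.17, adjusted p = 0.0082). Gm44064 (chr6:87851209-87852295), beside the nucleic acid binding protein gene Cnbp, was at 23.7, 27.1 and 18.4 CPM in null embryos and had 1 read in all het embryos together (adjusted p = 0.0049). Srsf3 (0.07 ± 0.23) and Cnbp (0.02 ± 0.21) were not called. The coding partners were chosen after their values were seen.

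**Figure D2:**
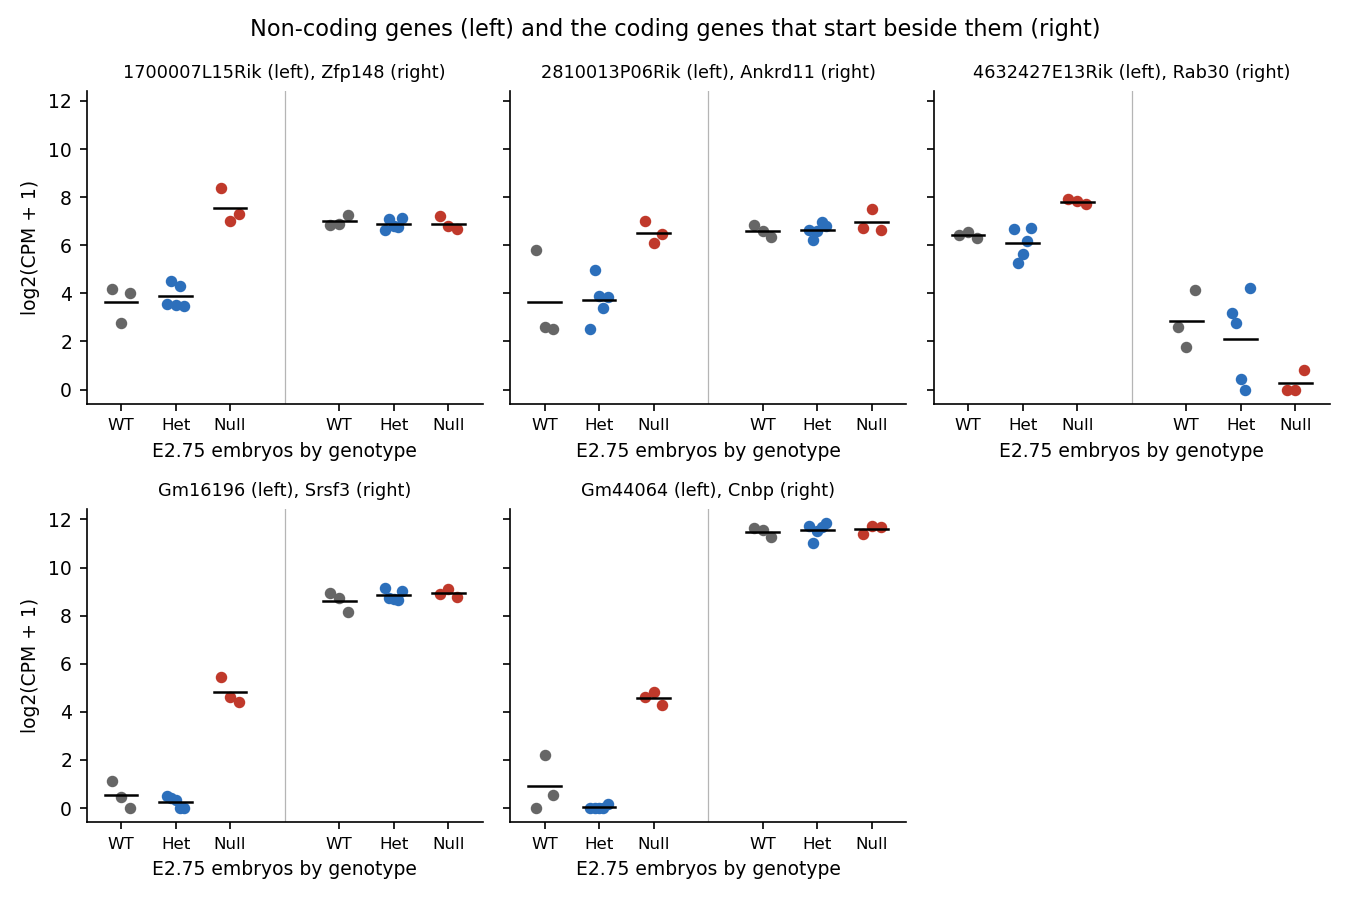
Levels of 5 non-coding genes (left of each panel) and of the coding gene that starts beside each (right), as log2(CPM + 1) in every WT (grey), het (blue) and null (red) embryo of E2.75, with bars at the group mean. The null embryos lie above all het embryos for each non-coding gene, while none of the 5 coding genes was called.

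Among antisense and other non-coding genes with a mean of at least 5 CPM, the 8 with the largest rises that separated the genotypes were nearly silent in het embryos. Antisense gene 2900060B14Rik (chr1:118458652-118459267) was at 194, 112 and 91.0 CPM in null embryos. In het embryos it was at 0.0722 and 3.37 CPM in the first 2 and at 0 in the other 3 (8.37 ± 1.28, adjusted p = 0.0049). Gm43868 (chr6:113044035-113046148) was at 91.3, 68.0 and 87.9 CPM in null embryos and did not exceed 1.01 CPM in any het embryo (7.75 ± 1.10, adjusted p = 0.0032). Gm44013 (chr6:140620162-140622423) was at 50.1, 64.7 and 48.3 CPM against at most 0.433 CPM (7.44 ± 1.13). The antisense gene AC126937.1 had 182 reads in null and 0 in het embryos, which gave an at least 263-fold higher level (adjusted p = 0.024). 4930578M01Rik was at 11.6 to 31.9 CPM in null embryos with 3 reads in all het embryos (adjusted p = 0.0065). Gm25360, Gm44064 and the small RNA gene Rny1 complete the 8.

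Longer, better known non-coding RNAs also rose, and were picked after their values were seen. Neat1, the nuclear RNA on which paraspeckles assemble (chr19:5824708-5845478), was at 353, 207 and 290 CPM in null and 21.2, 44.2, 113, 73.9 and 68.9 CPM in het embryos (2.14 ± 0.45, adjusted p = 0.023). Gt(ROSA)26Sor, the transcript of the Rosa26 locus, was at 113, 99.5 and 50.0 CPM against 23.6 to 35.8 CPM (1.64 ± 0.36, adjusted p = 0.026). For both, the genotypes did not overlap. Kcnq1ot1, the antisense RNA of an imprinted domain, was called (1.24 ± 0.35, adjusted p = 0.077), but null embryo 1, at 239 CPM, lay below het embryo 1, at 279 CPM.

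Some small non-coding RNA genes rose and none of those tested was called lower. Oligo-dT capture takes polyadenylated RNA, the mature forms of most of these RNAs have no such tail, and few of these genes passed the filter. Whether the one bears on the other was not tested. Of 7 small nuclear RNA (snRNA) genes tested 4 rose, of 26 small nucleolar RNA (snoRNA) genes 2, of 4 small Cajal body RNA genes 1, of 10 microRNA genes 1 and of 6 genes of the class misc_RNA 3, and 0 fell by edgeR, beside 2.51% of all genes tested called higher. At an unadjusted p under 0.05, in the same order, 5, 4, 1, 2 and 4 differed. Genes at or near 0 in het embryos, such as Rny1, Gm22265 and Gm25360, passed the filter only through other embryos, which can favour rises. These counts therefore say little about the classes, and no counts without the filter are given for them. Rny1 encodes the Y RNA that is bound by the Ro protein and ends in a run of T, where RNA polymerase III stops (in capitals). The gene sequence on GRCm38.p6 is given since the whole short transcript is annotated. The form of the RNA behind its reads was not tested.
Rny1, chr6:47788069-47788180, minus strand, whole gene: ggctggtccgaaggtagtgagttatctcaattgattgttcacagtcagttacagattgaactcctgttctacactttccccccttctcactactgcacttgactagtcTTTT

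Rny1 was at 39.6, 9.95 and 5.18 CPM in null embryos and had 0 reads in all 5 het embryos, an at least 252-fold higher level (adjusted p = 0.011). In WT embryos it did not exceed 0.591 CPM. Snord17, a snoRNA within the gene of the sorting nexin Snx5 (chr2:144265979-144266216), was at 71.5, 37.6 and 49.0 CPM in null and 5.63, 9.78, 7.27, 3.20 and 7.21 CPM in het embryos. The genotypes did not overlap (2.995 ± 0.52, adjusted p = 0.0091). Gm22748, a snoRNA gene within Odc1, which encodes the first enzyme of polyamine synthesis, was at 9.95 to 21.5 CPM against at most 0.722 CPM (4.80 ± 1.06, adjusted p = 0.027). Scarna2, a guide RNA of Cajal bodies, was at 10.4, 15.5 and 15.99 CPM against 0.727 to 1.69 CPM (3.602 ± 0.92, adjusted p = 0.051). The snRNA gene Gm22265 had 107 reads in null and 0 in het embryos (adjusted p = 0.027), and Gm25360, also an snRNA gene, was at 29.2, 31.0 and 21.8 CPM in null embryos with 1 read in all het embryos (adjusted p = 0.0054). The microRNA gene Mir6392 was at 15.96, 7.19 and 24.3 CPM against at most 0.814 CPM (5.76 ± 1.33, adjusted p = 0.033). Reads of its host transcript can fall on such a small gene.

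Host genes of snoRNAs are spliced transcripts whose introns hold the snoRNAs, and 17 of them were tested. Snhg3, Snhg20 and Dancr rose and Snhg5 fell, with a median of 0.46 over the list. The shares called, 17.65% higher and 5.88% lower, stand beside 2.51% and 2.31% of all genes tested. Snhg3 was at 130, 108 and 202 CPM in null and 25.7, 33.0, 26.4, 19.8 and 27.9 CPM in het embryos, with no overlap (2.47 ± 0.32, adjusted p = 0.0024). Snhg20 was at 102, 80.2 and 94.9 CPM against 23.9 to 59.7 CPM (1.43 ± 0.36, adjusted p = 0.047). Dancr overlapped between the genotypes, since null embryo 2 was at 14.9 CPM. Snhg5 ran the other way, at 75.9, 61.4 and 91.2 CPM against 118 to 204 CPM (-1.08 ± 0.28, adjusted p = 0.054). Under spike-in scaling the median of the list turned to -0.36, with 1 gene called higher and 2 lower.

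Shares of reads were then compared, one value per embryo. Reads that fell wholly or partly outside annotated exons, called reads outside exons here, made up 43.9%, 42.9% and 41.1% of the assigned, unassigned and ambiguous reads of null embryos 1 to 3. In het embryos 1 to 5 the share was 27.9%, 26.5%, 23.1%, 26.2% and 25.9%. The 2 groups were well apart, with all nulls on the high side. The means were 42.6% ± 1.43 (SD, n = 3) and 25.9% ± 1.76 (SD, n = 5), with a 2-sided exact permutation p of 0.0179, the smallest that 3 against 5 embryos allow, and 0.0536 after adjustment over 3 such comparisons. WT embryos of E2.75 ranged from 23.5% to 33.4%. At E2.5, null embryos ranged from 32.3% to 39.5% and the 2 het embryos were at 21.2% and 25.9%. These reads can come from introns, from unannotated transcripts or from residual DNA, and their origin was not tested.

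Counts on non-coding genes took 7.06% to 9.79% of gene counts in null and 4.68% to 8.66% in het embryos, which overlapped (exact permutation p = 0.0893). Mitochondrial ribosomal RNA, 1.07% to 3.21% in null and 1.28% to 3.54% in het embryos, was part of this share. Leaving out non-coding genes that overlap coding genes gave 5.53% to 7.75% and 3.61% to 7.65%, which overlapped (exact permutation p = 0.232). Without the mitochondrial ribosomal RNA, a step chosen after seeing the data, the ranges were 5.48% to 6.59% and 3.32% to 5.11% (exact permutation p = 0.0179). Antisense genes alone took 0.668%, 0.476% and 0.477% in null embryos and 0.175% to 0.260% in het embryos, a ratio of the means of 2.64 (exact permutation p = 0.0179). After thinning each library to 1690192 gene counts, 15418 to 16236 genes were detected in null and 14192 to 15547 in het embryos, which overlapped (exact permutation p = 0.0714). Gene counts per spike-in count were lower in null embryos, at 23.8 ± 5.43 (SD, n = 3) against 39.0 ± 6.08 (SD, n = 5) with no overlap (exact permutation p = 0.0179). Only reads assigned to genes enter this ratio, so a larger share of reads outside exons also lowers it. How much of the difference comes from that share was not tested. A whole embryo is 1 sample here, so fewer cells and less RNA per cell cannot be told apart either.

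**Figure D3:**
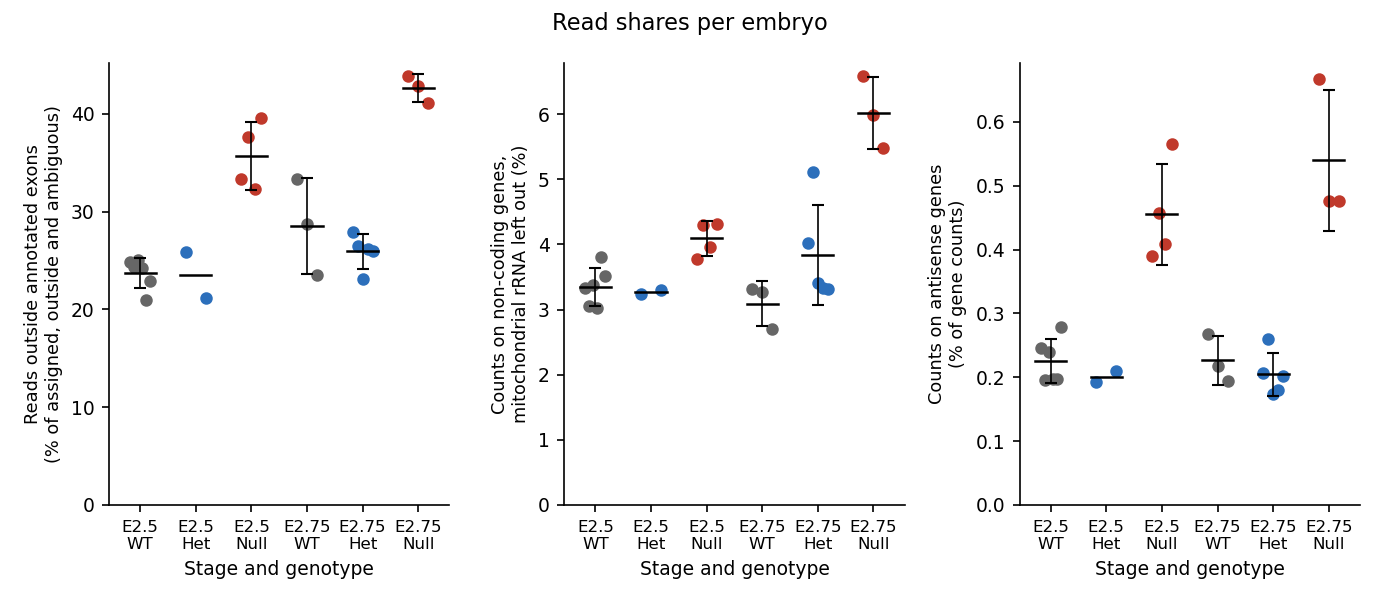
Share of reads wholly or partly outside annotated exons, share of gene counts on non-coding genes without mitochondrial ribosomal RNA, and share of gene counts on antisense genes, all in percent, for each embryo (points) by stage and genotype, with bars at the mean and error bars of 1 SD where a group has more than 2 embryos. At E2.75 the 3 null embryos lie above all 5 het embryos in each panel.

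Protein-coding genes that rose were fewer, and the abundant ones rose by a small factor. The 10 of highest level that separated the genotypes were Larp4, Tardbp, Pcbp1, Sox15, Cecr2, Uhmk1, Hnrnpdl, Ino80d, Rpl15 and Nemf. Tardbp, which encodes the RNA-binding protein TDP-43, was at 1085, 1144 and 1296 CPM in null and 574, 536, 449, 462 and 590 CPM in het embryos (1.17 ± 0.20, adjusted p = 0.0091). Hnrnpdl, a splicing regulator, was at 277, 362 and 352 CPM against 126 to 207 CPM (1.10 ± 0.22, adjusted p = 0.019). It was the one member called of 80 splicing factor genes (1.25%, beside 2.51% of all genes tested called higher). Larp4, a protein that binds poly(A) tails, was at 3271, 2221 and 3267 CPM against 847 to 1965 CPM (1.03 ± 0.25, adjusted p = 0.040). Pcbp1, a gene of a single exon whose protein binds C-rich RNA, rose by 1.06 ± 0.24 (adjusted p = 0.031). All 10 lay between 1.00 and 1.38 on the log2 scale, and under spike-in scaling their changes lay between 0.24 and 0.70 and none was called.

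Sox15, a SOX family transcription factor of the early embryo, was at 571, 705 and 846 CPM in null and 186, 297, 271, 268 and 333 CPM in het embryos. The genotypes did not overlap (1.38 ± 0.24, adjusted p = 0.0091). WT embryo 1, at 527 CPM, was nearer to the null embryos than the other WT embryos, at 303 and 376 CPM. The gene overlaps Mpdu1 on the opposite strand. Rpl15 was the one member called of 81 cytosolic ribosomal protein genes (201, 323 and 139 CPM against 73.1 to 123.1 CPM, 1.21 ± 0.28). That share, 1.235%, stands beside 2.51% of all genes tested called higher. The other 80 were not called, 64 of the 81 had a positive change and the median was 0.23, which became -0.56 under spike-in scaling and -0.22 without null embryo 1. Uhmk1, a kinase of splicing factors, Cecr2 and Ino80d, members of chromatin remodelling complexes, and Nemf, a factor of ribosome quality control, rose by 1.00 to 1.22.

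The largest rises of coding genes with a mean of at least 10 CPM were in genes that het embryos hardly expressed. They were Gm9887, Spib, Olfr373, 4930519G04Rik, F2, Ttc9, Tpm3-rs7, Cpne5, Gm9958, Magi2, Dhh, A930004D18Rik, Fbxo36, D430042O09Rik and Cox6b2, with changes from 3.02 to 4.81. Spib, a transcription factor of lymphoid cells, was at 42.9, 19.9 and 46.8 CPM in null and 0, 0, 0.182, 5.00 and 1.86 CPM in het embryos (4.70 ± 1.22, adjusted p = 0.054). F2, the gene of prothrombin, a liver protein, was at 38.5, 16.03 and 25.2 CPM against 0.116 to 3.71 CPM (4.23 ± 0.97, adjusted p = 0.031). Dhh, a hedgehog ligand of the gonad and nerve, was at 30.3, 29.3 and 24.4 CPM against 0.433 to 5.396 CPM (3.57 ± 0.88, adjusted p = 0.043). These 3 genes are known for other tissues, and no null embryo overlapped with a het embryo for any of them. Magi2, a synaptic scaffold, rose by 3.67 ± 0.70 (adjusted p = 0.016), and several shorter genes lie inside it.

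Olfr373, annotated as an odorant receptor gene (chr8:72083177-72103084), was at 185, 117 and 112 CPM in null and 4.04, 9.11, 6.36, 6.41 and 4.18 CPM in het embryos (4.54 ± 0.70, adjusted p = 0.0049). Its neighbour Olfr374 had 25 reads in null and 0 in het embryos (at least 31.9-fold higher, adjusted p = 0.077), and Olfr70 was at 2.21 to 12.3 CPM with 1 read in the het embryos. These were the 3 members called of the 21 odorant and vomeronasal receptor genes, out of 1468 listed, that passed the filter on low counts. The share called higher was 14.3%, beside 2.51% of all genes tested. Olfr374 and Olfr70 passed the filter only through embryos other than het, which can favour rises. The share therefore says little about the list, and no count without the filter is given for it. Receptors of this kind are closely related and Olfr373 overlaps Gm45543 on the same strand, so the assignment of reads is uncertain. Cox6b2, a testis form of a cytochrome c oxidase subunit, was at 63.8, 76.8 and 132 CPM in null and 7.80, 13.5, 29.6, 3.20 and 1.63 CPM in het embryos (3.02 ± 0.71, adjusted p = 0.034). Lipe, the gene of hormone-sensitive lipase, was at 68.2, 53.1 and 66.2 CPM against 9.01 to 16.6 CPM (2.24 ± 0.43, adjusted p = 0.016). Gene structure differed between the directions. Of 269 tested coding genes with 1 exon, 19 rose and 0 fell (median 0.47), while of 11567 with more exons 108 rose and 315 fell (median -0.13). By edgeR at an unadjusted p under 0.05, 40 of the 269 single-exon genes differed, beside 1825 of all 11836 coding genes tested. DESeq2 called 34 higher and 2 lower of the 583 single-exon genes it tested. Under spike-in scaling the median of the single-exon genes turned to -0.21, with 16 called higher and 8 lower. Without the filter on low counts it was 0.04, with 28 called higher and 2 lower.

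Falls were nearly all in coding genes, and genes of sterol and fatty acid synthesis fell in number. These enzymes build cholesterol and fatty acids from acetyl-CoA, and most are targets of the SREBP transcription factors, which cells activate when sterols are scarce. Of the 35 list members, all tested, 11 were called lower and 0 higher, beside 2.31% of all genes called lower. The list had a negative change in 29 of 35 members, and in 18 of 35 every null embryo lay below every het embryo, beside 6.49% of all genes. Its median change was -1.32 beside -0.04 for all genes. At an unadjusted p under 0.05, 19 members differed, and DESeq2 called 15 lower and 0 higher. The number called lower was 10 without null embryo 1, 5 without null embryo 2 and 7 without null embryo 3.

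Srebf2, the gene of the SREBP2 factor that drives sterol synthesis (chr15:82147181-82205379), was at 2.201, 8.29 and 3.55 CPM in null and 129, 54.3, 53.8, 41.2 and 50.0 CPM in het embryos. The genotypes did not overlap (-3.85 ± 0.66, adjusted p = 0.0091), and WT embryos were at 17.1, 78.8 and 38.5 CPM. Scd2, a stearoyl-CoA desaturase, was at 37.4, 36.5 and 40.4 CPM in null and 504, 583, 238, 242 and 365 CPM in het embryos (-3.34 ± 0.58, adjusted p = 0.0091). WT embryo 1, at 27.5 CPM, was as low as the null embryos, while the other WT embryos were at 271 and 127 CPM. Its paralog Scd1 was at 24.2, 50.9 and 55.8 CPM against 134 to 306 CPM (-2.45 ± 0.57, adjusted p = 0.034).

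Insig1, the sterol-dependent anchor of SREBP, was at 24.2, 24.3 and 33.3 CPM against 66.9 to 153 CPM (-2.04 ± 0.47, adjusted p = 0.032). The genotypes were apart by more than the range of the null embryos. Along the pathway, the mevalonate enzyme Pmvk fell by 2.77 ± 0.57 (adjusted p = 0.020), Fdps, which makes farnesyl diphosphate, by 1.43 ± 0.38 (adjusted p = 0.062), Sqle, squalene epoxidase, by 1.53 ± 0.36 (adjusted p = 0.033) and Lss, lanosterol synthase, by 1.48 ± 0.38 (adjusted p = 0.050). On the fatty acid side, Fasn, the fatty acid synthase, was at 60.0, 80.2 and 64.7 CPM against 130 to 224 CPM (-1.32 ± 0.28, adjusted p = 0.025), and the elongase Elovl1 fell by 2.72 ± 0.72 (adjusted p = 0.056). Each of the 11 members called separated the genotypes.

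Genes of lipid storage and uptake were mixed. Of 34 tested, 3 fell, Lipe rose, and the median was -0.62. The shares called, 8.82% lower and 2.94% higher, stand beside 2.31% and 2.51% of all genes tested. Plin3, a lipid droplet coat protein, was at 122, 123.3 and 148 CPM in null and 463, 398, 582, 493 and 518 CPM in het embryos (-1.91 ± 0.34, adjusted p = 0.0098). Dgat2, which makes triacylglycerol, was at 1.10, 3.87 and 17.6 CPM against 35.8 to 84.5 CPM (-2.74 ± 0.68, adjusted p = 0.044). Fabp3, a fatty acid binding protein, was at 0, 2.76 and 9.18 CPM against 29.5, 186, 30.4, 53.7 and 37.3 CPM (-3.90 ± 0.98, adjusted p = 0.046), with het embryo 2 far above the others. WT embryos, at 2.66 to 15.1 CPM, were as low as the null embryos for Fabp3. Stard3, a sterol transporter of late endosomes that is outside the list, fell by 3.96 ± 0.89 (adjusted p = 0.030).

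**Figure D4:**
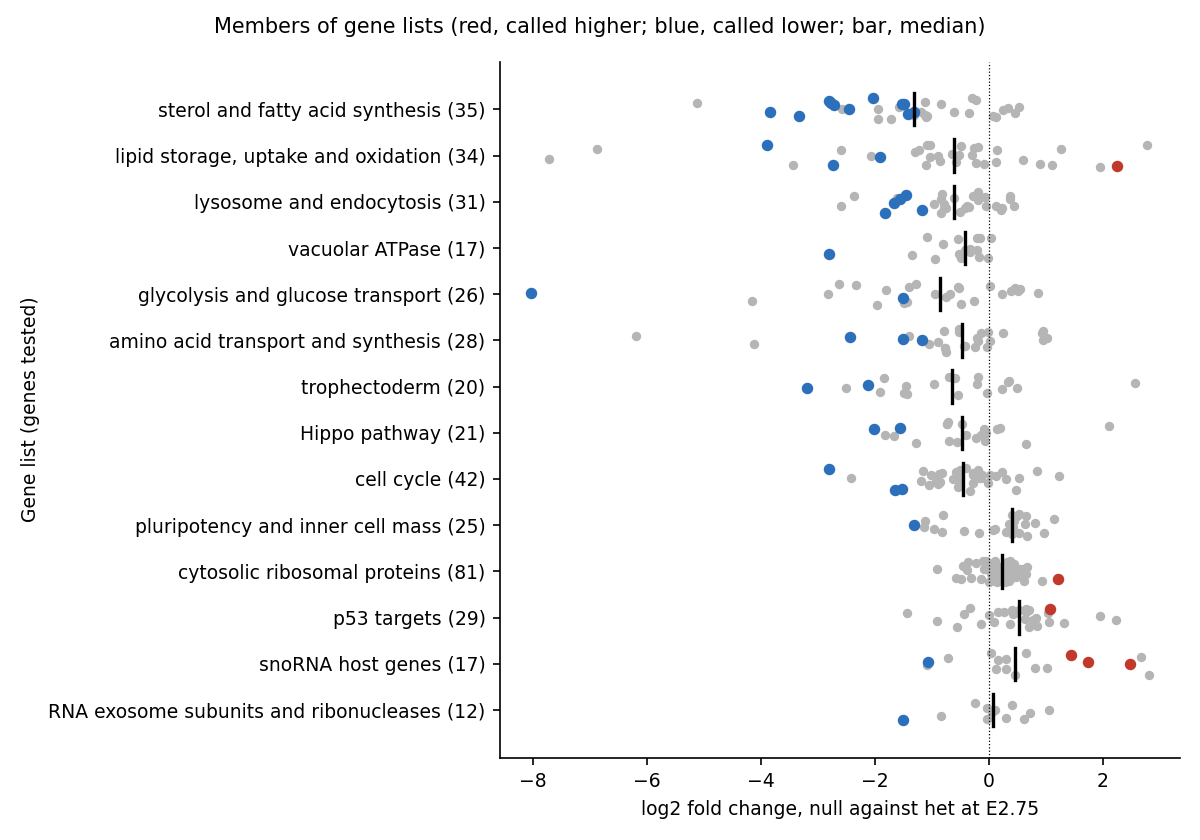
Log2 fold change of null against het at E2.75 for each tested member of 14 gene lists, with members called higher in red, called lower in blue and not called in grey, and the median of the list as a black bar. Sterol and fatty acid synthesis shows 11 blue points and a median of -1.32, and cytosolic ribosomal proteins lie close around a median of 0.23.

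Lysosomal genes fell in 5 of 31 cases and rose in 0 by edgeR (median -0.62, 25 of 31 negative, 11 at an unadjusted p under 0.05), a share called lower of 16.1% beside 2.31% of all genes tested. Grn, progranulin, was at 145, 81.8 and 286 CPM against 418 to 525 CPM (-1.45 ± 0.33, adjusted p = 0.032). The cathepsins Ctsb and Ctsh and the hexosaminidase Hexa were also called, with falls of 1.17 to 1.67. Without null embryo 1, and also without null embryo 3, 2 members were called lower. Atp6v0d1, a subunit of the proton pump that acidifies lysosomes, was at 29.2, 18.2 and 19.7 CPM in null and 180, 87.3, 200, 134 and 175 CPM in het embryos, the genotypes far apart (-2.80 ± 0.34, adjusted p = 0.0018). It was the one vacuolar ATPase gene called of 17, a share called lower of 5.88% beside 2.31% of all genes tested. Of the 17, 16 had a negative change (median -0.42), beside 6641 of all 11836 coding genes tested. At an unadjusted p under 0.05, 6 of the 17 differed.

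In energy metabolism, 2 of 26 glycolysis and glucose transport genes fell (median -0.85) and 0 rose by edgeR, with 10 at an unadjusted p under 0.05, a share called lower of 7.69% beside 2.31% of all genes tested. Aldoa, the aldolase of glycolysis, was at 195, 175 and 160 CPM in null and 424, 460, 592, 472 and 548 CPM in het embryos, with no overlap (-1.50 ± 0.26, adjusted p = 0.0091). Slc16a3, a lactate exporter, had 0 reads in null and 225 in het embryos (at least 17.2-fold lower, adjusted p = 0.098). Tkt, the transketolase of the pentose phosphate pathway, was at 461, 244 and 193 CPM against 519 to 1405 CPM (-1.49 ± 0.34, adjusted p = 0.031). The ADP/ATP exchanger genes Slc25a4 and Slc25a5 of the inner mitochondrial membrane fell. Slc25a4 was at 85.8, 56.4 and 53 CPM in null and 278, 263, 318, 291 and 289 CPM in het embryos (-2.15 ± 0.26, adjusted p = 0.0018), and Slc25a5 was at 268, 176 and 185 CPM against 486 to 1403 CPM (-1.99 ± 0.35, adjusted p = 0.0097). Of 82 nuclear genes of oxidative phosphorylation, Ndufv2 (-1.84 ± 0.34, adjusted p = 0.012) and Sdhb (-1.23 ± 0.35, adjusted p = 0.077) fell and Cox6b2 rose, with a median of -0.07. These shares, 2.44% lower and 1.22% higher, are near or under those of all genes tested (2.31% and 2.51%).

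Amino acid genes fell in 3 of 28 cases and rose in 0 by edgeR (median -0.48, 7 at an unadjusted p under 0.05), a share called lower of 10.7% beside 2.31% of all genes tested. Phgdh, the first enzyme of serine synthesis, was at 239, 164 and 208 CPM in null and 500, 355, 961, 521 and 542 CPM in het embryos (-1.50 ± 0.30, adjusted p = 0.019). Shmt2, which passes the one-carbon unit of serine to folate in mitochondria, fell by 2.44 ± 0.64 (adjusted p = 0.055), and the transporter Slc7a6 by 1.18 ± 0.27 (adjusted p = 0.033). Of 37 aminoacyl-tRNA synthetase genes Iars (-1.35 ± 0.25, adjusted p = 0.011) and Sars (-1.07 ± 0.26, adjusted p = 0.042) fell, a share of 5.41%. Eif4ebp1, an inhibitor of translation initiation, was at 313, 258 and 301 CPM against 475 to 738 CPM (-1.07 ± 0.24, adjusted p = 0.031).

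Of genes known from the outer cells, a few were lower. Krt18, a keratin of the trophectoderm, was at 0, 36.5 and 11.8 CPM in null and 151, 96.8, 121, 122.7 and 237 CPM in het embryos (-3.20 ± 0.77, adjusted p = 0.038). Gata3, a transcription factor of the trophectoderm, was at 47.9, 66.9 and 40.6 CPM in null and 244, 317, 23.7, 250 and 294 CPM in het embryos (-2.13 ± 0.62, adjusted p = 0.086). Het embryo 3 lay below all null embryos for Gata3, and WT embryos, at 23.03, 41.7 and 77.2 CPM, were level with the null embryos (0.12 for null against WT). Those were the 2 called of 20 trophectoderm genes (median -0.65), a share called lower of 10% beside 2.31% of all genes tested. Cdx2, which specifies the trophectoderm, was at 27.0, 34.3 and 15.4 CPM in null and 60.8, 154, 8.54, 120 and 110 CPM in het embryos, with the same het embryo lowest (-1.84 ± 0.97, adjusted p = 0.36). Without null embryo 3 none of the 20 was called by edgeR.

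Of 28 junction, polarity and cavitation genes 2 fell (7.14%, beside 2.31% of all genes tested), among them the claudin gene Cldn7, by 1.07 ± 0.27 (adjusted p = 0.045). Its genotypes did not overlap. The channel-activating protease gene Prss8 had 0 reads in null and 393 in het embryos (at least 31.0-fold lower, adjusted p = 0.062). Its epithelial inhibitor Spint2 was at 154, 55.8 and 78.3 CPM against 326 to 372 CPM (-1.86 ± 0.32, adjusted p = 0.0091). In the Hippo pathway, which tells outer from inner cells, Stk3 (-2.01 ± 0.60, adjusted p = 0.091) and Amot (-1.56 ± 0.47, adjusted p = 0.098) fell out of 21 (9.52%, beside 2.31% of all genes tested).

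Cell cycle genes fell in 3 of 42 cases and rose in 0 by edgeR (median -0.45, 10 at an unadjusted p under 0.05), a share called lower of 7.14% beside 2.31% of all genes tested. Ccne1, a cyclin of the G1 to S transition, was at 111, 91.2 and 164 CPM in null and 323, 384, 264, 420 and 378 CPM in het embryos (-1.53 ± 0.27, adjusted p = 0.0091). Cdc25c, a phosphatase for entry into mitosis, was at 27.0, 18.2 and 14.2 CPM against 53.7 to 69.1 CPM (-1.66 ± 0.33, adjusted p = 0.017). E2f1, a transcription factor for S phase genes, fell by 2.80 ± 0.76 (adjusted p = 0.066). All 3 separated the genotypes, and at E2.5 Cdc25c (0.25) and E2f1 (0.22) did not share the direction.

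Of 25 pluripotency genes, Zfp42, the marker also called Rex1, fell (103, 95.6 and 142 CPM in null and 334, 248, 222, 224 and 390 CPM in het embryos, -1.32 ± 0.27, adjusted p = 0.019), while the median was 0.40. The share called lower, 4%, stands beside 2.31% of all genes tested. Tet2, a dioxygenase that oxidizes methylated cytosine, was at 188, 111 and 169 CPM against 230 to 977 CPM (-1.97 ± 0.60, adjusted p = 0.098). Nanog, which marks the inner cell mass, was at 71.0, 49.2 and 58.3 CPM in null and 200, 148, 28.4, 141 and 129 CPM in het embryos (-1.12 ± 0.58, adjusted p = 0.35), with het embryo 3 below all null embryos. Pou6f1, a POU-domain transcription factor, was at 87.5, 26.5 and 18.9 CPM in null and 17.6, 21.6, 38.3, 9.21 and 12.9 CPM in het embryos. Those groups overlapped, and the WT embryos were at 25.7, 35.5 and 63.0 CPM (1.14 ± 0.56, adjusted p = 0.32). Gata6, an early endoderm factor, was at 367, 390 and 451 CPM against 211 to 255 CPM, with no overlap and no call (0.78 ± 0.28, adjusted p = 0.16). The 22 genes taken from the study's text include Gata3, Gata4 and Gata6, which it names as general lineage markers. Others were named partly from these libraries, so the list is not independent evidence. Of the 21 tested, Cox6b2, Sox15 and Pigl rose (14.3%) and Dis3 and Gata3 fell (9.52%), beside 2.51% and 2.31% of all genes tested.

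The steepest falls of coding genes with at least 10 CPM were in Sec1, Nedd4, Tspan9, Phc2, Serinc2, Enpp3, Stard3, Fabp3, Srebf2, Adgre5, Hdac5, Frrs1l, Lonrf1, Zfyve21 and Agrp. Sec1, a fucosyltransferase gene, was at 2.75, 0 and 0 CPM in null and 50.0, 10.4, 84.2, 48.6 and 27.6 CPM in het embryos (-6.08 ± 1.07, adjusted p = 0.0098). Nedd4, a ubiquitin ligase, was at 0.550, 2.76 and 0.296 CPM against up to 58.6 CPM in het embryos, with no overlap (-4.76 ± 0.96, adjusted p = 0.019). Hdac5, a class II histone deacetylase, was at 2.75, 3.87 and 0.888 CPM against 13.6 to 51.7 CPM (-3.76 ± 0.84, adjusted p = 0.028). The 15 were taken only from called genes in which all null embryos were below all het embryos. Under the same condition, the 10 most abundant coding genes that fell were C130073F10Rik, Fth1, Tkt, Slc25a5, Cstb, Eif4ebp1, Tet2, Phgdh, Hsph1 and Galk1. Fth1, the heavy chain of the iron store ferritin, was at 460, 286 and 331 CPM in null and 709, 1170, 1028, 537 and 655 CPM in het embryos (-1.19 ± 0.28, adjusted p = 0.033).

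Non-coding genes that fell were few, and those named here were taken only where the genotypes did not overlap. Kat2b-ps, a processed pseudogene, was at 7.70, 7.74 and 4.59 CPM in null and 33.95, 42.5, 58.5, 19.8 and 43.8 CPM in het embryos (-2.60 ± 0.48, adjusted p = 0.011). The lincRNA genes EU599041 (-2.48 ± 0.48) and Gm40977 (-1.93 ± 0.42) and the antisense gene 4933406B15Rik (-3.09 ± 0.73) also fell without overlap. Gm44769 fell by 4.07 on the log2 scale. The lincRNA gene Gm27204, BB557941 and the processed pseudogene Gm46426 were also called lower, with too few reads in null embryos for a fold.

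Several lists held no or hardly any called gene. None of 60 ribosome biogenesis genes, 37 proteasome genes, 36 mRNA turnover genes, 18 apoptosis genes, 16 genes of RNA sensing and interferon, 22 maternal-effect genes, 15 genes of the two-cell stage, 20 of primitive endoderm and FGF signalling, 29 homeobox and POU factor genes, 75 signalling ligands and receptors and 7 mitochondrially encoded mRNAs was called by edgeR. At an unadjusted p under 0.05 they held 2, 8, 2, 4, 4, 1, 4, 2, 2, 7 and 0 genes in that order. The genes of the two-cell stage had a median of -1.33, with 11 of 15 negative. Of 29 p53 targets 22 had a positive change (median 0.53) and Eda2r, a receptor of the TNF family, was called (139, 138 and 229 CPM against 50.1 to 125 CPM, 1.07 ± 0.30, adjusted p = 0.070). WT embryos, at 160 to 214 CPM, were level with the null embryos for Eda2r. Of 34 replication-dependent histone genes, whose mRNA normally lacks a poly(A) tail, 28 had a positive change with a median of 1.17, and Hist1h2bb was called (4.02 ± 1.21, adjusted p = 0.096), though with null embryo 3, at 1.33 CPM, below het embryo 1. The shares called higher were 3.45% of the p53 targets and 2.94% of the histone genes, beside 2.51% of all genes tested. Of all 11836 coding genes tested, 5195 had a positive change. Of 77 mitochondrial ribosomal protein genes Mrpl10 fell (-2.46 ± 0.40, adjusted p = 0.0066), of 28 chaperone genes Hsph1 and Hspe1 fell, of 24 stress genes Edem1 fell, and of 321 Zfp genes 4 fell and 0 rose. In that order the shares called lower were 1.30%, 7.14%, 4.17% and 1.25%, beside 2.31% of all genes tested.

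WT embryos of E2.75 share the null embryos of the comparison, so null against WT is given only beside it. In that contrast 316 genes were called higher (2.19%) and 340 lower (2.35%) of 14442, and 357 of the 363 rises and 330 of the 333 falls against het had the same sign. Het against WT gave 0 calls by edgeR in either direction, with 760 genes higher and 606 lower at an unadjusted p under 0.05. Het embryos were below WT for 214 of the 363 genes that rose and above WT for 216 of the 333 that fell. The same het embryos enter both contrasts, so genes called against het lean to these signs by construction. No share over all genes is given beside these counts. Some sterol genes varied widely among WT embryos, with Scd1 at 29.2, 306 and 124 CPM and Insig1 at 43.1, 192 and 60.9 CPM.

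The embryos of E2.5 played no part in the calls. With 4 null against 2 het embryos, 0 of 15904 genes were called higher and 2 lower (0.0126%) by edgeR, with 701 and 772 at an unadjusted p under 0.05. The 2 were Scd2 (-4.44, adjusted p = 0.093) and the transporter gene Slc43a3. Of the genes that rose at E2.75, 340 were tested at E2.5 and 327 of these (96.2%) had a positive change, as did 49.3% of the 13543 genes tested at both stages. For non-coding genes it was 218 of 219, and for coding genes 109 of 121. A gene near 0 in het embryos passes the filter at E2.5 only through other embryos, which can favour a positive sign. The 49.3% covers coding and non-coding genes together, so it is no background for the non-coding share. Of the genes that fell at E2.75, 278 of 333 (83.5%) had a negative change at E2.5. 1700007L15Rik (3.41), Neat1 (2.81), Snhg3 (1.99) and Snord17 (1.75) were higher in the means of the null embryos at E2.5 as well, without a call. All 11 sterol genes called at E2.75 were negative at E2.5, from -4.44 for Scd2 to -0.10 for Fdps. Aldoa (0.02), Phgdh (0.07) and Sec1 (0.06) were near 0 at E2.5.

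**Figure D5:**
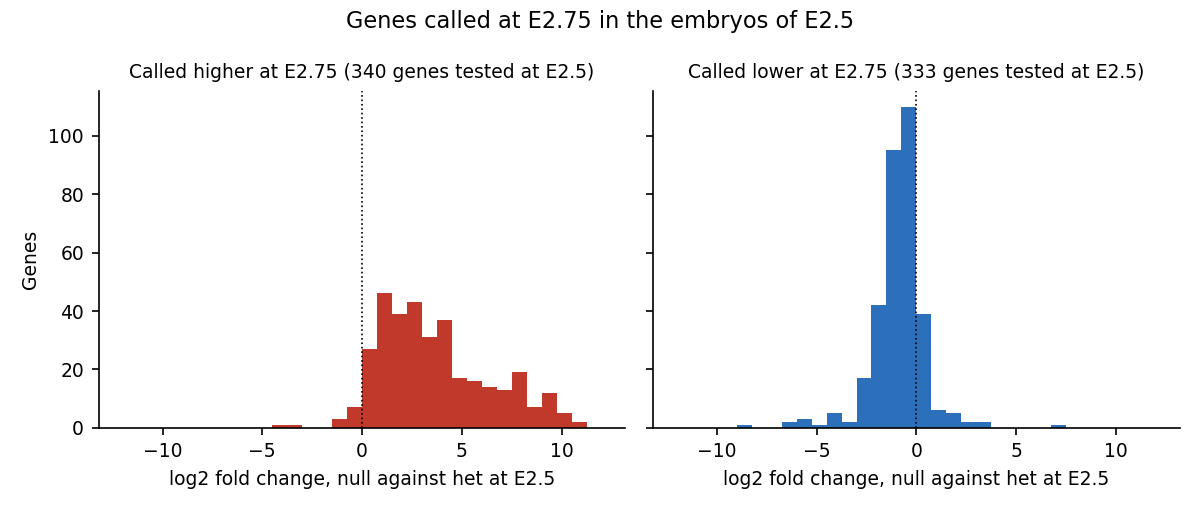
Histograms of the log2 fold change of null against het embryos at E2.5 for genes called higher (left, 340 tested) and lower (right, 333 tested) at E2.75, with a dotted line at 0 and the number of genes on the vertical axis. Of the first set 327 lie above 0, and of the second 278 lie below 0.

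The series also holds binding sites of POU6F1-mCherry, called in mouse embryonic stem cells and not in embryos. A peak found in both replicates against the IgG control lay within 1000 bp of a start of 242 of 315 coding genes that fell (76.8%), 81 of 127 that rose (63.8%) and 73.0% of all coding genes tested. For non-coding genes it was 143 of 235 that rose (60.9%) and 24.2% of those tested. Non-coding genes that start beside a coding gene share its promoter region, and whether they account for that share was not tested.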

How the data were processed

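Single embryos were sequenced from polyadenylated RNA with ERCC spike-in RNA. Per the authors, Cutadapt 3.4 trimmed reads by base quality and length, STAR 2.7.8a placed reads on GRCm38, and HTSeq 0.11.4 summed them by gene without regard to strand, so the deposited values are raw counts per gene for 55487 genes and 92 spike-ins. HTSeq was run in its strict intersection mode, which assigns a read only if all of it lies within exons of a gene. The authors called POU6F1-mCherry peaks in stem cells with Bowtie2 2.4.4 and MACS2 2.2.7.1, separately for each replicate and each of 2 controls. The deposited peak files give a score, a fold enrichment over the control and −log10 p and q values, of which only the peak positions were used. By the study's legend, list 1 of each replicate was called against IgG and list 2 against cells with mCherry alone.

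Spike-ins and the summary lines of the counter were left out of library sizes and tests. Genes were filtered with filterByExpr, normalized by TMM and tested with edgeR 4.0.16 (R 4.3.3) by the quasi-likelihood F test on all 11 embryos of E2.75, with 1 coefficient per genotype and the contrast null minus het. P-values were adjusted by Benjamini-Hochberg over all genes tested, and SE is the size of the fold change over the square root of F. Single values per embryo were compared by 2-sided exact permutation over 56 assignments (scipy 1.17.1). Where a group had 0 reads, a bound was set at 3 reads over the group. Such bounds cover counting error only. Gene classes, starts and sequences came from a GRCm38.p6 annotation that lacked 260 of the genes.

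Named genes were Dis3 and genes the study names, the 15 largest rises and falls of coding genes with at least 10 CPM, the 10 most abundant, the 8 largest non-coding changes with at least 5 CPM, all without overlap of genotypes, and called members of the lists. The members and lists were chosen with earlier results of these data known. On simulated counts, the fit recovered 29% of 200 genes changed 4-fold (13496 genes) and 59% of 200 changed 16-fold (13529 genes), with 0 in the wrong direction. Alternatives were DESeq2 1.42.0, other scalings, no filter, fewer samples, a replicate block, equal depth, Y-linked transcripts as a term and leaving out each embryo. The labels give the embryos no parent or litter, so p-values measure the spread between these embryos. Some results are not reported here.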

Additional observations from a re-analysis of the deposited data

Results flagged for a closer look

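In the 5 het embryos, 1 value lay apart from the other 4 by more than Dixon's 95% limit for 18 of the 146 values tested, and chance flags about 1 in 20. Among genes that fell, the value apart was the highest for Srebf2 (129 CPM, het embryo 1), Fabp3 (186 CPM), Serinc2 (45.6 CPM), Agrp (124 CPM), BB557941 (42.5 CPM), Gm46426 (38.8 CPM) and Ndufv2 (328 CPM), and the lowest for Gata3 (23.7 CPM, het embryo 3). Among genes that rose, it was the highest for 4930519G04Rik (9.77 CPM), Tpm3-rs7 (3.04 CPM), Fbxo36 (7.42 CPM), Pcbp1 (693 CPM) and 2900060B14Rik (3.37 CPM), and the lowest for Gm44013 (0 CPM). For Gm25360 (0.337 CPM), Gm44064 (0.116 CPM), 4930578M01Rik (0.217 CPM) and Olfr70 (0.200 CPM) it was the one het embryo with reads.

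The processed pseudogene Gm46426 changed in opposite directions at the 2 stages, by -5.33 at E2.75 and by 6.97 at E2.5 on the log2 scale. The null embryos of E2.75 held too few reads of it for the size of the first value to be read, and the cause was not tested.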

How the results depend on the processing

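Of the 363 rises and 333 falls, every gene tested under an alternative kept its sign, but the number called moved. DESeq2 called 956 higher and 721 lower of 28912 genes, and no filter on low counts gave 667 and 654 of 29549. Scaling to the spike-ins called 2164 lower. Leaving out 1 embryo gave 154 to 388 higher and 138 to 332 lower. The lowest counts were those without null embryo 3 (154 and 138), and counts also moved by over 1.5 times without null embryo 1 (180 higher), null embryo 2 (212 and 205), het embryo 1 (232 and 210), het embryo 4 (220 and 220) and het embryo 5 (229 and 213). With the replicate block 41 were called higher and 52 lower. The labels do not say what the replicate number marks. The deviations of same-numbered null and het embryos had correlations of -0.085, -0.068 and 0.0035, and those of differently numbered pairs ranged from -0.081 to 0.119. These values cannot show whether same-numbered embryos share a litter or batch. The difference in the non-coding share, 2.34 percentage points (exact permutation p = 0.0893), was 1.61 without genes overlapping coding genes (exact permutation p = 0.232) and 1.58 to 3.03 when 1 embryo was left out (exact permutation p from 0.0571 to 0.333). Without mitochondrial ribosomal RNA it was 2.19 (exact permutation p = 0.0179), for which no embryo was left out. For reads outside exons that range was 15.99 to 17.47 points and for genes detected 603.5 to 1050.

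Genes named as not called changed sign in places. Under spike-in scaling Zfp148 was at -0.72, Cnbp at -0.66, Ankrd11 at -0.26 and Srsf3 at -0.62. Without the filter Zfp148 was at -0.065, Cnbp at -0.055 and Srsf3 at -0.019. With Y-linked transcripts as a term, a setting chosen after seeing the data, Cnbp was at -0.016. With 1 embryo left out, Zfp148 ranged from -0.18 to 0.12, Cnbp from -0.087 to 0.10, Srsf3 from -0.044 to 0.15 and Snx5 from -0.47 to 0.030. The cause was not tested. Null libraries held as few as 1690192 gene counts, which limits the calls on low genes.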
